A study of Mus musculus with 4 samples.

Results

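The genes described here build and load the MHC class I molecule: B2m, H2-K1, H2-D1, H2-Q7, H2-T22, H2-T23, Tap1, Tap2, Tapbp and Nlrc5. They were chosen by name and function, not by a measured value, though earlier results of these data were known. They were 10 of the 31053 genes counted. Each of the 10 had at least 22 unique molecular identifiers (UMIs, each of which marks 1 captured transcript) in every library and T-cell class. Later splits of these cells held fewer for some genes.

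MHC class I molecules show peptides from inside a cell to CD8 T cells and to receptors of natural killer cells. A heavy chain pairs with the light chain beta-2 microglobulin in the endoplasmic reticulum, where a transporter brings in peptides and tapasin holds the empty molecule at that transporter until a peptide is bound. Almost all nucleated cells carry these molecules, T cells included, and interferons raise the transcription of most of the genes involved.

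Meninges and choroid plexus were the source of the T cells, which were sorted for CD4 or CD8 by flow cytometry. Donors were untreated female C57BL/6 mice without a transgene, either young (10 weeks old) or aged (18 months old), and the 5′ ends of their transcripts were counted per cell. Each of the 4 libraries was one tissue at one age, and values for 4 libraries are always given with the young meninges first, then the young choroid plexus, the aged meninges and last the aged choroid plexus. Each library was a pool of 5 mice, so there was 1 library per condition, no replicate and no test between conditions. All intervals below are 95% exact intervals that cover counting error only, not the variation between mice.

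The libraries held 718 to 1695 cells and 2295950 to 4262917 UMIs, and 605 to 1408 cells per library were kept as T cells with a UMI of Cd3d, Cd3e or Cd3g. At most 3 cell barcodes were shared by any pair of libraries. A T cell counted as CD4 if it held UMIs of Cd4 but not of Cd8a or Cd8b1 (254, 160, 362 and 230 cells), and as CD8 in the reverse case (254, 160, 281 and 473 cells). Neither call could be made for 481, 269, 735 and 358 T cells without a UMI of these genes, and the 16 to 33 cells with both were left out. Median depth was lower in the aged meninges, at 2312.5 UMIs per T cell, than in the other libraries (2838.5 to 3198 UMIs). Levels are UMIs summed over the cells of a class and scaled by the UMI total of that class to CPM, in which 1000 CPM are 0.1% of all UMIs, and log2 ratios were taken after 10 CPM was added to both sides.

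8 of the 10 genes lie within a stretch of 2.13 Mb in the MHC on chromosome 17 of GRCm38 (33915899 to 36042747). The light chain gene B2m lies apart at chr2:122147686-122153083, and Nlrc5, the transactivator of class I transcription, at chr8:94434356-94527272. Among the heavy chains, H2-K1 and H2-D1 are the classical ones that present most peptides to CD8 T cells. H2-Q7 encodes a Qa-2 antigen, H2-T22 a ligand of some gamma-delta T-cell receptors, and H2-T23 the Qa-1 heavy chain, whose peptide complex binds CD94/NKG2 receptors. Heavy chain genes resemble each other, and 0.0900 to 10.0% of all words of 90 bases in their transcripts were also found in another gene. In the first 400 bases, which a 5′ kit reads, only H2-K1 shared such words (0.183%).

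The stretches upstream of 4 start sites are shown because these genes behaved differently in the comparisons that follow. They are the 250 bases before the start in RefSeq (GRCm38.p6), read 5′ to 3′ on the strand of the gene. Capitals mark GGGGATTCC, a single spelling of an NF-kB site, and AANNGAAA, the core of an interferon-stimulated response element (ISRE). Both were searched on both strands, and no link of these letters to the levels was tested.
H2-K1, chr17:34000348-34000597, minus strand: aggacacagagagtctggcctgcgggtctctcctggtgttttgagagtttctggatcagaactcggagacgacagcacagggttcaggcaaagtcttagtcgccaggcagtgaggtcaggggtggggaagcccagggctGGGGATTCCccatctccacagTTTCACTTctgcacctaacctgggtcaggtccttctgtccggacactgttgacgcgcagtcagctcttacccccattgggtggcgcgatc
H2-Q7, chr17:35438905-35439154, plus strand: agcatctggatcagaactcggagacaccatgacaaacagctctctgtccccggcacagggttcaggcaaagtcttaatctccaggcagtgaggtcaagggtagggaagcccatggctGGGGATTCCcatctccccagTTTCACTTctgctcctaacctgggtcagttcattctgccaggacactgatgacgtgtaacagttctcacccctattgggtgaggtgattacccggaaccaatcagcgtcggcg
H2-T22, chr17:36042743-36042992, minus strand: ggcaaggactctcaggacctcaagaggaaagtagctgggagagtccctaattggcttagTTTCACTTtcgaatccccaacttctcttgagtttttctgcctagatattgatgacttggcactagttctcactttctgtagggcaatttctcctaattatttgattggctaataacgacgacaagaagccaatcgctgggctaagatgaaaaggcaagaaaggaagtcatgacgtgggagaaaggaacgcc
B2m, chr2:122147437-122147686, plus strand: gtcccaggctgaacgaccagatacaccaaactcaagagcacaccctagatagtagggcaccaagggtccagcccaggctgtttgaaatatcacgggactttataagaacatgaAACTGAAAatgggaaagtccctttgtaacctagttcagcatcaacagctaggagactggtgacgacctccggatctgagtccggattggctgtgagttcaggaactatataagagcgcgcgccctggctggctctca

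H2-K1, H2-Q7 and H2-D1 each held an NF-kB motif followed closely by an ISRE core. Of 32851 RefSeq promoters, 0.213% held the NF-kB motif, 21.3% an ISRE core and 0.0578% (19 promoters) both. H2-T22 and B2m held 1 ISRE core and H2-T23 held 2, without the letters GGGGATTCC. Other spellings of an NF-kB site were not searched in any window. Stretches such as gggaaagtccc in B2m and gggagagtccc in H2-T22 were therefore not scored. The absence of GGGGATTCC does not show that B2m, H2-T22 and H2-T23 lack an NF-kB site, and does not set them apart from H2-K1 and H2-Q7. Neither motif was found in the windows of Tap1 and Tapbp, which says only that these letters are absent there. The gamma-activated site TTCNNNGAA, found in 7.02% of all promoters, was in none of the windows of the 8 matched genes.

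The class I genes were expressed in T cells of every library and class, with the light chain B2m and the classical heavy chains far above the rest of the group. Together they made up 0.541 to 0.691% of all UMIs in young and 0.726 to 0.931% in aged T cells. B2m gave 29.5% of these UMIs at most. Levels were not divided by transcript length, since each UMI stands for 1 transcript whatever its length. No cell type that should lack these genes was present, so the share of their UMIs that came from free RNA was not measured.

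**Figure D1:**
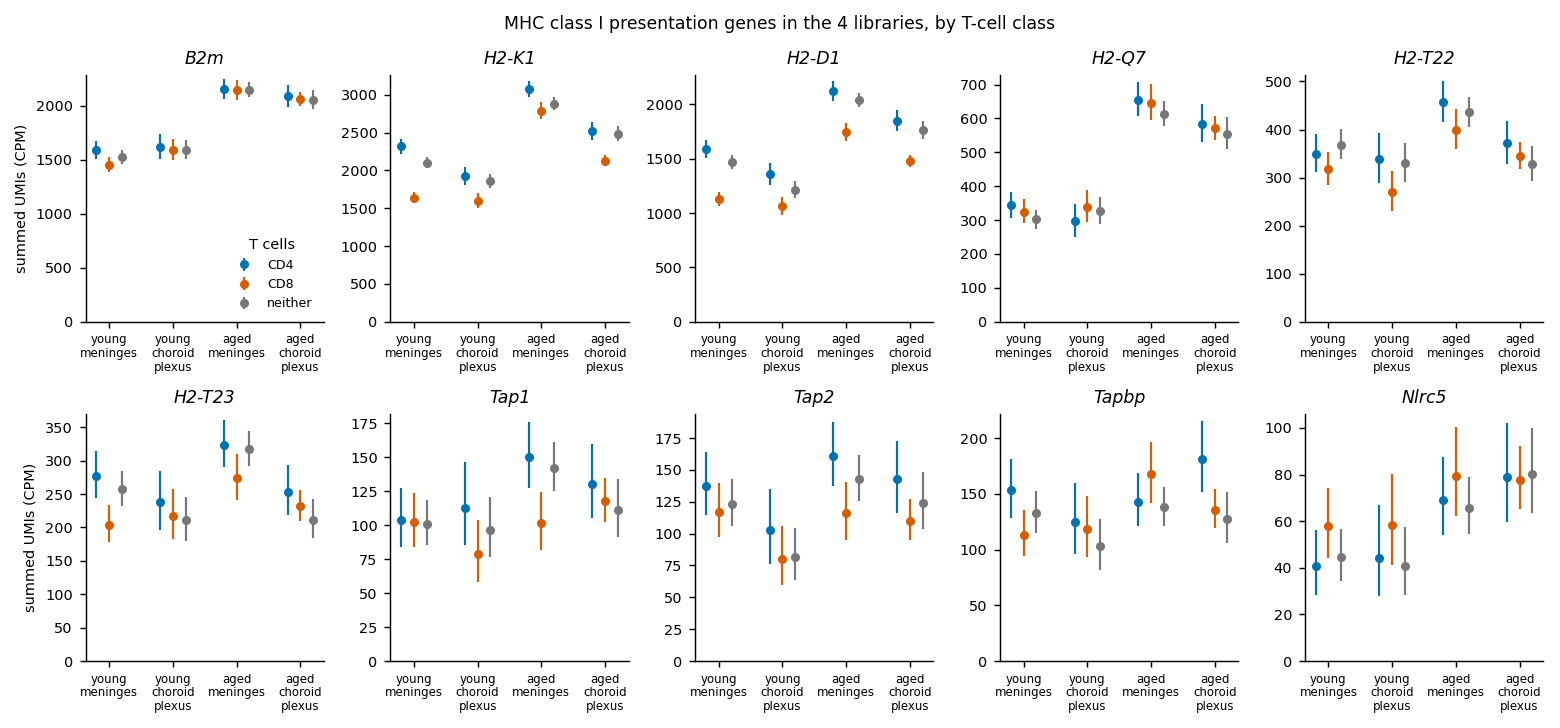
Summed UMIs of the 10 class I presentation genes in CPM (y axes from 0, a scale of its own for each gene) by library (x axis) and T-cell class (colour), with exact Poisson intervals as bars. B2m and H2-Q7 were higher in every aged than in every young group of cells, and H2-K1 and H2-D1 were lower in CD8 than in CD4 T cells of each library.

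B2m is the light chain that every class I molecule needs. It differed less between the 3 classes of a library than between ages, and was higher in the aged libraries. CD4 T cells had 1592, 1620.4, 2156 and 2090.2 CPM of B2m in the 4 libraries. CD8 T cells had 1456, 1595, 2147 and 2063 CPM. Cells of neither class had 1526, 1593, 2152 and 2059 CPM, so every aged value of B2m lay above every young one. The log2 ratio of aged over young was 0.44 (0.34 to 0.54), 0.56 (0.46 to 0.66) and 0.49 (0.42 to 0.57) for meningeal CD4, CD8 and neither cells. For choroid plexus cells the B2m ratio was 0.37 in each class, with intervals from 0.24 to 0.49, 0.27 to 0.47 and 0.27 to 0.47. In the order of its 12 levels, neighbours overlapped in their intervals in 10 of 11 pairs, and the exception was the step between the lowest aged and the highest young group.

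H2-K1, a classical heavy chain, had the highest level of the group, shared with B2m in young choroid plexus CD8 T cells, and was higher in aged T cells of each class and tissue. In CD4 T cells it reached 2318, 1924, 3074 and 2521 CPM, in CD8 T cells 1640.5, 1595, 2790 and 2131 CPM, and in neither cells 2104, 1860.5, 2886 and 2482 CPM. The levels of H2-K1 in young and aged groups overlapped, since young meningeal CD4 T cells (2318 CPM) lay above aged choroid plexus CD8 T cells (2131 CPM). Within a tissue and class the aged library was higher, by a log2 ratio of 0.41, 0.76 and 0.45 in meningeal CD4, CD8 and neither cells and 0.39, 0.42 and 0.41 in those of the choroid plexus. The largest of these, in meningeal CD8 T cells, had an interval of 0.68 to 0.85.

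H2-D1, the other classical heavy chain, lay at a lower level. Aged meningeal CD8 T cells were above all choroid plexus groups for H2-K1 and below aged choroid plexus CD4 T cells for H2-D1. CD4 T cells had 1592, 1357, 2122 and 1849 CPM, CD8 T cells 1129, 1062, 1746 and 1480 CPM, and neither cells 1468, 1213.5, 2042 and 1764 CPM of H2-D1. Aged over young log2 ratios of meningeal cells were 0.41, 0.62 and 0.47, and those of choroid plexus cells 0.44, 0.47 and 0.54, in the order CD4, CD8 and neither. None of the intervals of these 6 ratios for H2-D1 reached below 0.31. UMIs of H2-K1 per UMI of H2-D1 stayed between 1.36 and 1.60 in all 12 groups of cells.

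H2-Q7, the Qa-2 heavy chain, had the largest age ratio of the group in all comparisons but choroid plexus neither cells, where Nlrc5 had a larger one (0.82). Its 6 young levels lay between 296 and 343 CPM and its 6 aged levels between 555 and 655 CPM. The log2 ratio was 0.91 (0.73 to 1.13), 0.97 (0.80 to 1.19) and 0.999 (0.86 to 1.18) in meningeal CD4, CD8 and neither cells. In the choroid plexus it was 0.96 (0.71 to 1.26), 0.74 (0.54 to 0.97) and 0.74 (0.55 to 0.98). The closely related H2-Q6, which shares sequence with H2-Q7 outside its 5′ end, was higher by at least 0.97 in the same 6 comparisons. With the UMIs of H2-Q6 and H2-Q7 added, the ratio was 0.81 to 1.15, in the same direction.

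H2-T23 differed with age mainly in meningeal cells, and H2-T22 in meningeal cells and in choroid plexus CD8 T cells. H2-T22 had 318 to 368 CPM in young and 400 to 457 CPM in aged meningeal classes, with log2 ratios of 0.38, 0.32 and 0.24 and intervals above 0. In the choroid plexus the H2-T22 ratios were 0.13 (-0.15 to 0.42), 0.34 (0.11 to 0.61) and -0.01 (-0.25 to 0.23), and centring on the median of all genes moved the first and last to -0.04 and -0.14. For H2-T23 the meningeal ratios were 0.22 (-0.02 to 0.47), 0.41 (0.15 to 0.69) and 0.29 (0.12 to 0.50), against 0.09, 0.09 and 0.00 in the choroid plexus, where intervals included 0 and centring gave -0.08, -0.09 and -0.13. The difference between the tissues in these ratios was not tested.

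The peptide transporter subunits Tap1 and Tap2 and the loading factor Tapbp lay well below the classical heavy chains and less precisely measured. Tap1 had 101 to 104 CPM in young and 102 to 150 CPM in aged meningeal classes, and 78.8 to 113 CPM and 111 to 130.2 CPM in those of the choroid plexus. Its age ratio passed counting error in meningeal CD4 (0.49, 0.15 to 0.92) and neither cells (0.45, 0.20 to 0.79) and in choroid plexus CD8 T cells (0.52, 0.12 to 1.05), and in meningeal CD8 T cells it was -0.01 (-0.42 to 0.41). Tap2 was higher beyond counting error in the choroid plexus only, in CD8 (0.41) and neither cells (0.55, 0.16 to 1.06). Tapbp was higher in meningeal CD8 (0.53, 0.21 to 0.92) and choroid plexus CD4 T cells (0.51, with an interval above 0), and its ratio in meningeal CD4 T cells was -0.09 (-0.45 to 0.25). UMIs of Tap2 per UMI of Tap1 lay between 0.846 and 1.33, and the intervals of 11 of the 12 ratios included 1.

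Nlrc5, the transactivator that drives class I genes, was the lowest of the group and was counted from 22 to 135 UMIs per group of cells. It had 40.6, 44.3, 69.1 and 79.0 CPM in CD4, 57.7, 58.3, 79.5 and 77.8 CPM in CD8 and 44.5, 40.9, 65.8 and 80.2 CPM in neither cells. All 6 ratios of aged over young were above 0, from 0.36 to 0.82, and 1 of them, in choroid plexus CD8 T cells, became -0.15 without cells that held UMIs of other cell types. Counting error was passed in CD4 and neither cells of both tissues (0.64, 0.48, 0.71 and 0.82 in meningeal CD4, meningeal neither, choroid plexus CD4 and choroid plexus neither cells) and not in CD8 T cells (0.40, -0.05 to 0.98, and 0.36, -0.12 to 0.98).

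The group was read against all genes with at least 20 UMIs on the higher side, counting a gene as higher or lower past a log2 ratio of 0.5. In meningeal CD4 T cells H2-Q7 and Nlrc5 were past 0.5, 2 of 10 beside 16.5% of all genes. B2m, H2-K1, H2-D1, H2-Q7 and Tapbp were past it in meningeal CD8 T cells, 5 of 10 beside 14.3%, and H2-Q7 alone in meningeal neither cells beside 13.3%. In the choroid plexus the counts were 3 of 10 in CD4 T cells (H2-Q7, Tapbp and Nlrc5, beside 23.3%), 2 of 10 in CD8 T cells (H2-Q7 and Tap1, beside 17.9%) and 4 of 10 in neither cells (H2-D1, H2-Q7, Tap2 and Nlrc5, beside 17.1%). These shares were near the background except in meningeal CD8 and choroid plexus neither cells. Neither exception held under every alternative: the meningeal CD8 count was 2 without abundant families in the total or without cells that held UMIs of other cell types, and the choroid plexus neither count was 0 without such cells. None of the 10 was lower by 0.5 in any of the 6 comparisons, where 8.56, 9.43 and 7.53% (meningeal CD4, CD8 and neither) and 7.93, 4.58 and 7.02% (choroid plexus) of all genes were.

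The median ratio of the 10 genes was 0.41, 0.47 and 0.45 for meningeal CD4, CD8 and neither cells and 0.41, 0.39 and 0.39 for those of the choroid plexus. Medians of all genes were 0.08, 0.04 and 0.05, and 0.17, 0.18 and 0.14. Genes passed the UMI filter at a lower CPM on the side with more UMIs. That was the aged side in all comparisons but meningeal CD8 T cells (1735559 against 634510 UMIs in choroid plexus CD8 T cells). The medians and shares of all genes lean toward that side, and a shift shared by genes in general was not tested. Centred on the median of all genes, the group's medians were 0.33, 0.43, 0.40, 0.24, 0.21 and 0.26. Ribosomal protein genes took 33.7 to 39.6% of UMIs in young and 28.5 to 34.4% in aged groups of cells. With these and other abundant families out of the total, the medians were 0.30, 0.36, 0.35, 0.28, 0.30 and 0.26. B2m, H2-K1, H2-D1 and H2-Q7 remained above 0 in all 6 comparisons under each of 12 alternatives to the processing, and a later alternative, cells with a Ccr7 UMI alone, brought H2-D1 in meningeal CD8 T cells to -0.0146. The 3 classes of a tissue came from the same libraries and are not independent repeats.

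**Figure D2:**
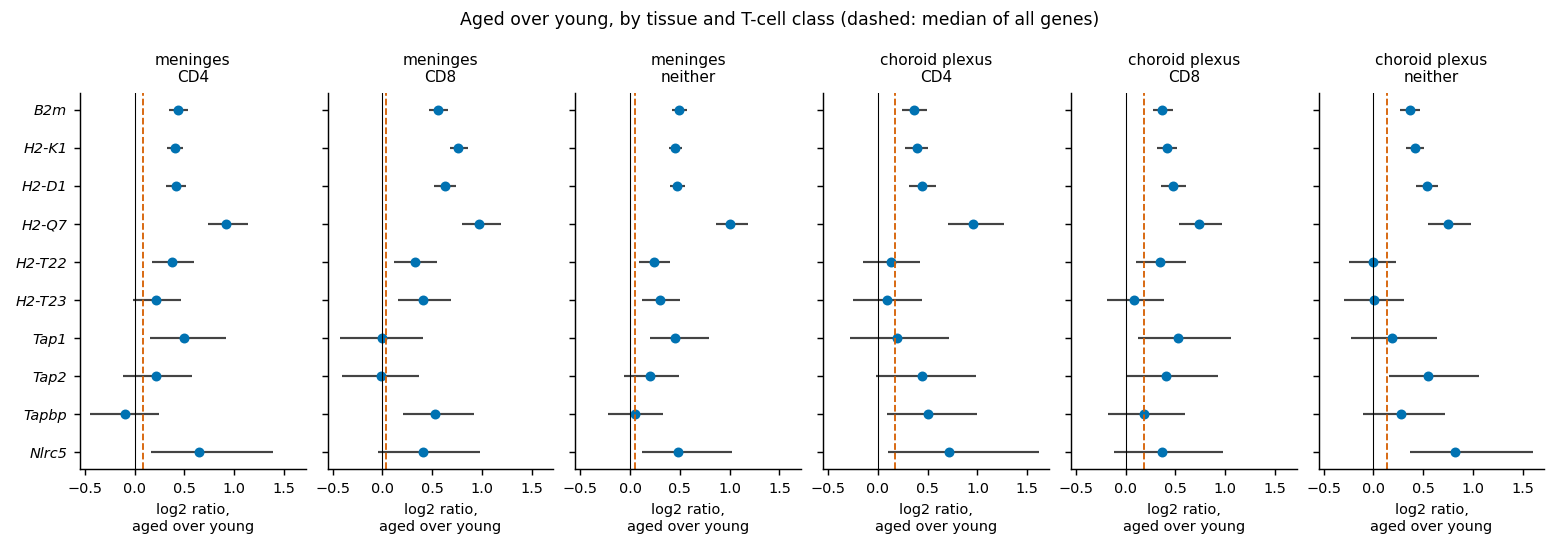
Log2 ratios of aged over young (points, after 10 CPM was added) with exact counting intervals of the ratio without that addition (lines) for each gene, in the 3 T-cell classes of each tissue. The dashed line is the median of all genes, from 0.04 to 0.18, and H2-Q7 lay farthest to the right of it in the 3 meningeal panels (0.91 or more).

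Genes of other cell types differed between the libraries too. The summed level of the MHC class II genes H2-Aa, H2-Ab1, H2-Eb1 and Cd74, which mark antigen-presenting cells, was 14.7 CPM in young and 755 CPM in aged meningeal CD4 T cells, and 48.3 and 382 CPM in those of the choroid plexus. All 4 had UMIs in both aged CD4 groups, while 2 and 3 of them were at 0 in the young ones. Without cells that held such a UMI, an alternative chosen after the data were seen, the group's median age ratios were 0.42, 0.43, 0.43, 0.37, 0.39 and 0.34. Gamma-delta T-cell genes summed to 23.7 and 91.7 CPM in the CD8 T cells of the young and the aged meninges and to 18.9 and 181 CPM in those of the choroid plexus, and without cells that held a UMI of gamma-delta or natural killer genes the CD8 medians were 0.43 and 0.34. Haemoglobin genes summed to 13.2 and 452 CPM in the CD8 T cells of young and aged meninges and to 483 and 466 CPM in meningeal neither cells. Of 4 endothelial markers, Pecam1 and Ly6c1 (the latter also used by T cells) had UMIs and Cldn5 and Cdh5 were at 0 in all 12 groups. Their sum was lower in each aged class, at 257 and 54.3 CPM in young and aged meningeal CD4, 36.9 and 17.7 CPM in CD8 and 263 and 51.9 CPM in neither cells, and at 314 and 60.9, 78.8 and 27.1, and 214 and 88.2 CPM in those of the choroid plexus. B-cell genes summed to 65.2 to 264 CPM over the 12 groups, macrophage genes to at most 193 CPM and fibroblast genes to at most 1.15 CPM. The part of these genes in the age ratios was tested only by leaving cells out. Cells with UMIs of Ly6c1 alone stayed in, since T cells use that gene too. Without cells that held a UMI of the other class II, haemoglobin, endothelial, B-cell, macrophage or fibroblast genes, the group's medians were 0.40, 0.42, 0.40, 0.30, 0.40 and 0.27. The 6 T-cell receptor and CD3 genes used as T-cell markers were detected in every group.

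Within a library, H2-K1 and H2-D1 were lower in CD8 than in CD4 T cells, while B2m differed less than either. The B2m ratio farthest from 0, in the young meninges (-0.13), was close to the smallest one of H2-K1 (-0.14). The H2-K1 log2 ratio of CD8 over CD4 was -0.50 (-0.59 to -0.41), -0.27 (-0.40 to -0.14), -0.14 (-0.22 to -0.06) and -0.24 (-0.32 to -0.16) in the 4 libraries. For H2-D1 it was -0.49, -0.35, -0.28 and -0.32, with upper ends of the intervals at -0.38, -0.20, -0.19 and -0.23. B2m gave -0.13, -0.02, -0.01 and -0.02. Centring moved H2-K1 in the aged meninges to 0.02, and H2-D1 kept its sign under all 12 alternatives in each library. An exact sign-flip test over 4 libraries cannot go below a two-sided p of 0.13, the value that ratios of 1 sign in all 4 give, and was not run.

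A ratio within the same cells does not depend on the scaling to CPM. Each UMI of B2m in CD4 T cells came with 1.46, 1.19, 1.43 and 1.21 UMIs of H2-K1, and in CD8 T cells with 1.13, 1.0, 1.30 and 1.03. For H2-D1 the values were 1.0, 0.837, 0.984 and 0.885 in CD4 and 0.775, 0.666, 0.813 and 0.717 in CD8 T cells. The CD8 ratio was the lower one in each library for both heavy chains. The intervals of H2-D1 per B2m in CD4 and CD8 T cells did not overlap in any library. Those of H2-K1 per B2m overlapped in the young choroid plexus and the aged meninges. Cells of neither class had 1.38, 1.17, 1.34 and 1.21 UMIs of H2-K1 per UMI of B2m. These values lay nearer to CD4 than to CD8 T cells except in the aged meninges, where 1.34 lay nearer to the CD8 value of 1.30. H2-K1 per B2m was higher in the meninges than in the choroid plexus at both ages.

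**Figure D3:**
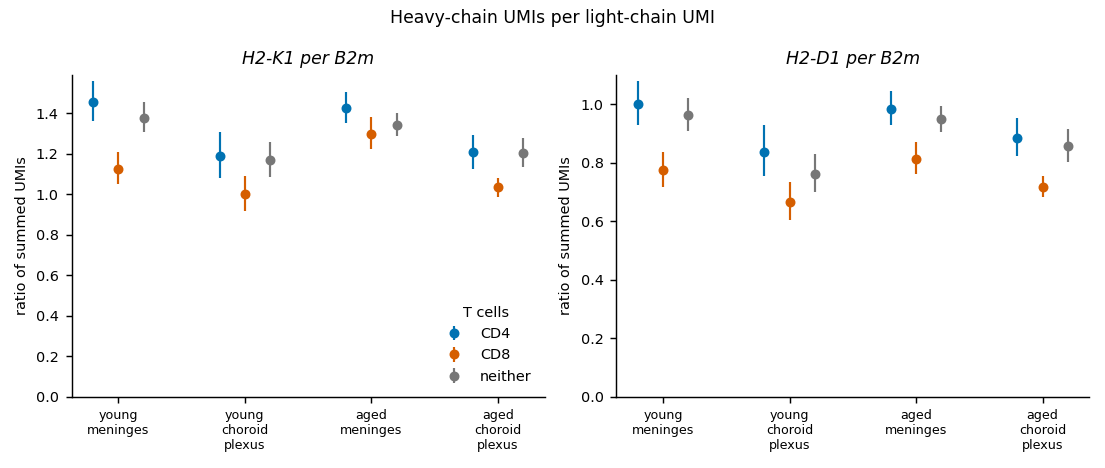
UMIs of H2-K1 (left) and H2-D1 (right) per UMI of B2m (y axes from 0) by library and T-cell class, with exact intervals. CD8 T cells had the lowest ratio in each library, from 1.0 to 1.30 for H2-K1 and from 0.666 to 0.813 for H2-D1.

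H2-Q7 gave -0.08, 0.19, -0.02 and -0.03, and in 3 libraries it changed sign under other scalings, as B2m did. The other genes of the group differed less regularly between the classes. Tap2 was lower in CD8 T cells by -0.21, -0.32, -0.44 and -0.35, beyond counting error in both aged libraries. H2-T22 and H2-T23 were lower in CD8 T cells of all 4 libraries, with intervals below 0 in 1 library each (H2-T22 in the young choroid plexus, -0.32, and H2-T23 in the young meninges, -0.42), and in 3 libraries for H2-T23 and 2 for H2-T22 the sign turned under some alternative. Nlrc5 had ratios of 0.42, 0.33, 0.18 and -0.02, all within counting error. No gene of the 10 was lower by 0.5 in the young meninges, the young choroid plexus or the aged choroid plexus, and 1 (Tap1, -0.52) was in the aged meninges, where 13.5, 13.2, 10.4 and 16.1% of all genes were. Medians over the 10 were -0.17, -0.20, -0.16 and -0.13, beside -0.13, -0.05, -0.16 and -0.01 for all genes.

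Choroid plexus T cells had less H2-K1 and H2-D1 than meningeal T cells of the same age and class. In young CD4, CD8 and neither cells the log2 ratio of choroid plexus over meninges for H2-K1 was -0.27, -0.04 (-0.15 to 0.07) and -0.18, and in aged cells it was -0.29, -0.39 and -0.22. H2-D1 gave -0.23, -0.09 (-0.23 to 0.05) and -0.27 in young and -0.20, -0.24 and -0.21 in aged cells. Young CD8 T cells were the exception for both, with intervals that included 0, where centring gave 0.03 for H2-K1 and thinning 0.034 for H2-D1. In B2m the largest tissue ratio was 0.13, in young CD8 T cells.

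Tap2 was lower in the young choroid plexus, by -0.39, -0.49 and -0.54 in CD4, CD8 and neither cells, against -0.16, -0.07 and -0.19 in aged cells. Intervals of the young choroid plexus and meningeal Tap2 levels overlapped in CD4 (76.4 to 135 and 114 to 164 CPM) and CD8 T cells (59.8 to 106 and 97.6 to 140 CPM). They did not overlap in neither cells. H2-T23 was lower in the aged choroid plexus in each class (-0.34, -0.23 and -0.56, intervals below 0). Past 0.5 were Tap2 in young neither cells and H2-T23 in aged neither cells, 1 of 10 each, and none of the 10 in the other comparisons. Among all genes, 17.5, 12.4 and 12.4% of young and 10.1, 4.41 and 7.08% of aged CD4, CD8 and neither comparisons were lower by 0.5. The all-gene medians were -0.14, -0.07 and -0.10 in young and -0.04, 0.07 and -0.04 in aged cells.

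Ccr7 encodes the receptor that guides naïve T cells to lymph nodes, and a Ccr7 UMI was found in 59.5, 54.2, 9.43 and 9.90% of the T cells of the 3 classes together. The cells with and without it were therefore compared within each library. H2-K1 had 1681, 1691, 2023 and 1871 CPM in cells with a Ccr7 UMI and 2523, 1908, 3033 and 2380 CPM in cells without one. H2-D1 had 1188, 1046, 1433 and 1317 CPM with and 1710, 1386, 2065 and 1687 CPM without it. H2-Q7 had 237, 256, 464 and 496 CPM with and 445, 403, 656 and 580 CPM without it. These 3 heavy chains were lower in the cells with Ccr7 in all 4 libraries with intervals below 0, by median log2 ratios of -0.46, -0.46 and -0.56.

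B2m moved less, from -0.21 to -0.06, with intervals below 0 in 3 libraries. Of the 10 genes 9 were lower in cells with Ccr7 in all 4 libraries, and Tap2 was 0.11 higher in the aged choroid plexus. The counts of genes lower by 0.5 were 3, 2, 8 and 1 of 10, beside 15.1, 15, 27.7 and 21.2% of all genes, whose medians were also below 0 (-0.15, -0.11, -0.29 and -0.23). The medians of the 10 genes were -0.34, -0.17, -0.59 and -0.24. Through the UMI filter, medians and shares of all genes lean toward the larger set. That was the cells with Ccr7 in young and those without it in aged libraries. Against these medians of all genes H2-K1 and H2-D1 were lower in all 4 libraries, H2-Q7 in all but the aged choroid plexus (-0.22), and B2m in the young meninges alone. Cells with a Ccr7 UMI were deeper in the aged libraries, with medians of 2895 against 2211.5 UMIs and 3779 against 2715 UMIs, and the part of depth was not tested.

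Age differences were then read within cells with and within cells without a Ccr7 UMI. A missing UMI is not a missing transcript, so cells without one can include naïve cells whose Ccr7 was not captured. The share of such cells can differ between ages and was not measured. In cells without a Ccr7 UMI, aged over young ratios were 0.39 for B2m, 0.26 for H2-K1, 0.27 for H2-D1 and 0.55 for H2-Q7 among meningeal and 0.35, 0.32, 0.28 and 0.51 among choroid plexus cells, beside 0.02 and 0.11 for all genes. In cells with a Ccr7 UMI they were 0.43, 0.27, 0.27 and 0.94 among meningeal and 0.28, 0.15, 0.33 and 0.93 among choroid plexus cells, beside -0.18 and -0.10 for all genes. All 16 intervals lay above 0. The medians of all genes lean toward the larger set, the aged cells without and the young cells with Ccr7. The aged cells with Ccr7 were few (130 meningeal and 105 choroid plexus cells), and by class 7 of the 24 ratios of these 4 genes in cells with Ccr7 were within counting error. These were H2-D1 in meningeal CD4 (0.16), H2-K1 (0.20) and H2-D1 (-0.0146) in meningeal CD8, H2-K1 (0.21) and H2-D1 (0.093) in choroid plexus CD4, and B2m (0.11) and H2-K1 (0.084) in choroid plexus neither cells. By class, all 24 ratios in cells without Ccr7 were above 0 beyond counting error. The medians of all genes in these cells were 0.10, 0.14 and 0.06 in meningeal CD4, CD8 and neither cells. In those of the choroid plexus they were 0.27, 0.21 and 0.16. H2-K1 (0.19) and H2-D1 (0.24) lay below this median in choroid plexus CD4 T cells. H2-K1 in meningeal CD4 T cells (0.13) lay just above it, and the rest lay above it. H2-Q7 had the widest gap of the 4 genes in both kinds of cells.

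**Figure D4:**
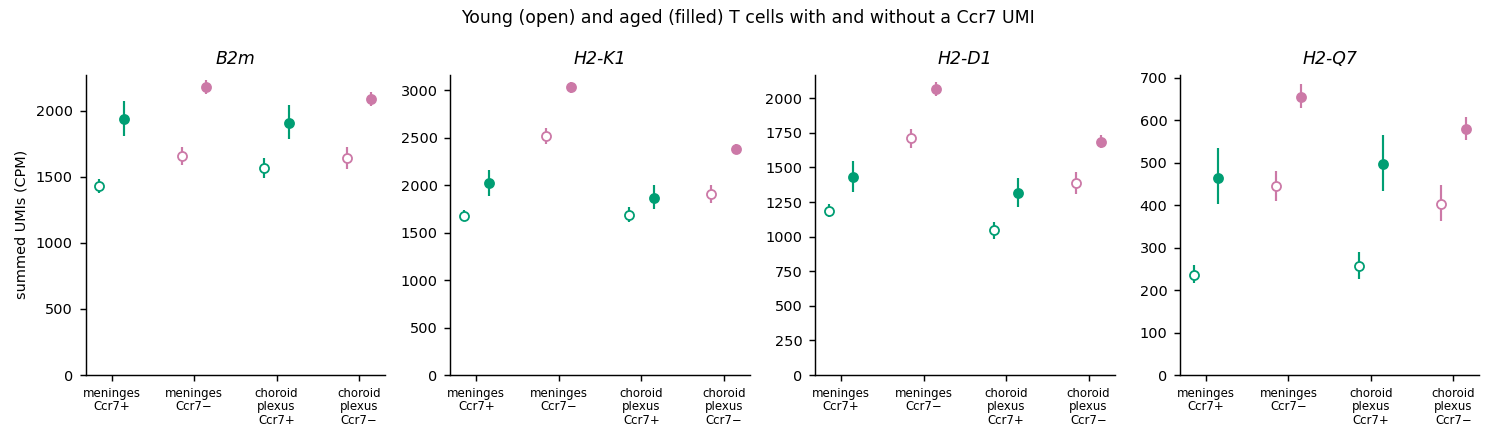
Summed UMIs in CPM (y axes from 0) of B2m, H2-K1, H2-D1 and H2-Q7 in young (open) and aged (filled) T cells with (green) and without (pink) a Ccr7 UMI, with exact Poisson intervals, for each tissue. In every pair the aged point lay above the young one, with log2 ratios from 0.15 to 0.94.

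The remaining genes were less regular. Tap2 was higher in aged choroid plexus cells both with (0.61) and without (0.33) a Ccr7 UMI, beyond counting error. Nlrc5 (0.62) and Tapbp (0.39) were within counting error in choroid plexus cells with Ccr7. In meningeal cells with a Ccr7 UMI, H2-T22 (-0.17), H2-T23 (-0.09), Tap1 (-0.27), Tap2 (-0.38) and Tapbp (-0.19) had ratios below 0 within counting error, beside the -0.18 of all genes. By class, Tap2 (-1.29, from 5 aged and 81 young UMIs) was lower beyond counting error in meningeal CD8 T cells with a Ccr7 UMI. In meningeal cells without it, H2-T22 (0.26), H2-T23 (0.19) and Tap1 (0.25) were higher in aged cells beyond counting error. Nlrc5 gave 0.30 and 0.36 in cells without Ccr7, within counting error in both tissues.

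Cells were also split by interferon-stimulated genes. UMIs of at least 2 of 27 such genes, the split chosen first, took in most cells, and the 10 class I genes were past 0.5 in these cells in 0, 1 (Tap1), 1 (Nlrc5) and 0 cases, beside 9.17, 14.4, 4.99 and 8.09% of all genes. A stricter split, chosen after these values were seen, took cells with UMIs of at least 2 of Ifit1, Ifit2, Ifit3, Ifit3b, Isg15, Rsad2, Usp18, Oasl1, Cmpk2 and Mx1, which were 9.30, 7.81, 15.7 and 9.80% of the T cells. H2-T22 had 550, 510, 653 and 525 CPM in these cells and 324, 290.4, 383 and 323 CPM in the rest. H2-T23 had 302, 275.5, 416 and 339 CPM against 239.5, 214, 284 and 217 CPM. The log2 ratio of H2-T22 was 0.74, 0.79, 0.75 and 0.69, beyond counting error in each library. Cells taken by the stricter split were deeper, with medians of 3599, 3431, 2508 and 3173 UMIs. The rest had medians of 3171, 2931, 2258 and 2780 UMIs, and the part of depth was not tested.

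H2-T23 gave 0.32, 0.35, 0.54 and 0.62, beyond counting error in all but the young choroid plexus. Tap1 (0.48, 1.19, 0.67 and 0.19) and Tapbp (0.51, 1.11, 0.52 and 0.25) were higher beyond counting error in all but the aged choroid plexus. Ratios of B2m (0.12, 0.09, 0.22 and 0.27), H2-K1 (0.24, 0.40, 0.26 and 0.28) and H2-D1 (0.20, 0.34, 0.21 and 0.07) were smaller than those of H2-T22 in each library. The medians of the 10 genes were 0.47, 0.54, 0.42 and 0.27, beside -0.15, -0.24, -0.07 and -0.13 for all genes. Through the UMI filter these medians of all genes lean toward the far larger rest of the cells, so the gap to them is partly set by the filter. H2-T22 thus differed more between cells of the stricter split and the rest (0.69 to 0.79) than between ages (-0.01 to 0.38). H2-Q7 gave 0.45, 0.66, 0.15 and 0.27 in that split, beyond counting error in all but the aged meninges. Between ages its ratios were 0.74 to 0.999.

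**Figure D5:**
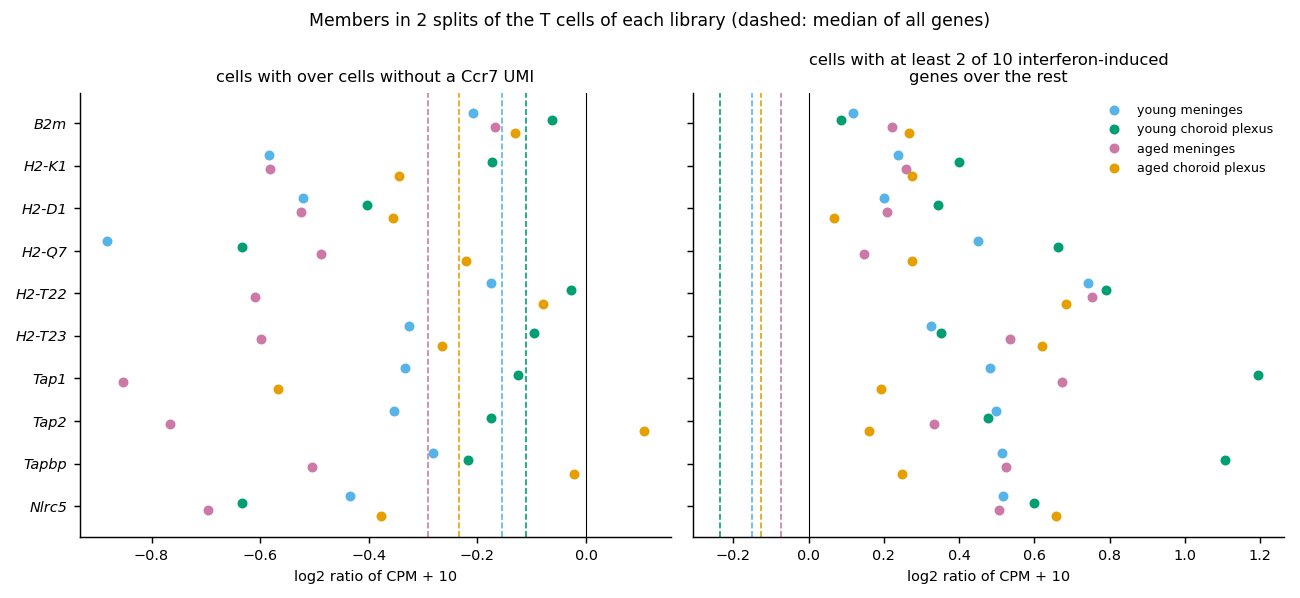
Log2 ratios for each gene in the 4 libraries (colours) between T cells with and without a Ccr7 UMI (left) and between cells with UMIs of at least 2 of 10 interferon-induced genes and the rest (right). Dashed lines are the medians of all genes, and H2-T22 lay between 0.69 and 0.79 on the right in all libraries.

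Other genes of the pathway were taken from fixed lists. Psmb8, a catalytic subunit of the immunoproteasome that cuts class I peptides, had 570 to 617 CPM in young and 887 to 994 CPM in aged groups, with log2 ratios of 0.60 to 0.72. Psmb9, another such subunit, was higher by 0.34 to 0.76, beyond counting error in all 6 comparisons. Of the 18 other pathway genes 15 to 17 were measured, and 6, 4 and 3 were higher by 0.5 in meningeal CD4, CD8 and neither cells and 3, 4 and 4 in those of the choroid plexus, against none lower. The shares of all genes higher by 0.5 were 16.5, 14.3 and 13.3% for meningeal and 23.3, 17.9 and 17.1% for choroid plexus cells. With so few genes, the counts of 3 and 4 were not far from these shares. Lower by 0.5 were 8.56, 9.43 and 7.53% of all genes in meningeal and 7.93, 4.58 and 7.02% in choroid plexus cells. The median ratios of the pathway genes were 0.26, 0.37, 0.15, 0.27, 0.26 and 0.42, below or near those of the 10 class I genes.

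Of 11 other class I heavy chain genes in the files 3 or 4 were measured per comparison. H2-Q6 was past 0.5 in all 6, and H2-M3, which presents formylated bacterial peptides, in all but choroid plexus CD4 T cells (0.61 to 0.95). Of all genes, 16.5, 14.3 and 13.3% were past it in meningeal and 23.3, 17.9 and 17.1% in choroid plexus CD4, CD8 and neither cells. With 3 or 4 genes measured, no share of the list was read against these. Of 27 interferon-stimulated genes, 14 of 24, 16 of 23 and 15 of 26 measured were higher by 0.5 in meningeal CD4, CD8 and neither cells, beside 16.5, 14.3 and 13.3% of all genes, with medians of 0.62, 0.68 and 0.62. In the choroid plexus 3 of 15, 5 of 22 and 4 of 20 were higher, near the 23.3, 17.9 and 17.1% of all genes, and 2, 3 and 3 were lower, beside 7.93, 4.58 and 7.02%, with medians of 0.25, 0.26 and -0.04. Isg15, a ubiquitin-like interferon product, was higher by 1.04 to 1.2 in the 3 meningeal classes, and its ratio was 0.55 (0.03 to 1.22), -0.08 and -0.08 in choroid plexus CD4, CD8 and neither cells. B2m, H2-K1, H2-D1 and H2-Q7 were higher in aged cells of both tissues.

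The spread from cell to cell was also measured. With every cell thinned to 1000 UMIs, which left out 0 to 25 cells per group, UMIs of B2m were found in 71.3 to 81.8% of the cells in young groups and 85.8 to 89.6% in aged groups (94.8 to 99.2% and 95.9 to 99.4% without thinning). For H2-Q7 these shares were 20.8 to 28.9% and 38.6 to 49.4% (50.6 to 66.5% and 71.8 to 79.0% without thinning). The variance of B2m UMIs over their mean, which is 1 where only counting varies, was 0.95 to 1.29. For H2-K1 it was 1.18 to 1.80, the larger values being in CD8 T cells of the meninges (1.78 young and 1.80 aged).

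The genes outside the group whose levels most resembled its mean profile over the 12 groups of cells were Atp2b1, Cd82, Srgn, Pttg1 and Glrx, among 2367 genes of at least 50 CPM. Their Pearson correlations were 0.97, 0.96, 0.96, 0.96 and 0.95. Correlations of the members with the mean profile, which includes them, went from 0.68 for Nlrc5 to 0.96 for H2-D1. The 12 points share 4 libraries and their depths, so these values only describe likeness.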

How the data were processed

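Sorted T cells of 4 libraries, each pooled from 5 mice, were analysed. The authors deposited unnormalised counts of UMIs for each gene in each cell, made from 5′ libraries with STAR and Cell Ranger on mm10. The submitters' processing notes name version 5.1.0, whereas the deposited file headers name version 3.1.0. The annotation version is not given in the sources used here.

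Cells with 200 to 7000 genes and at most 5% mitochondrial UMIs were kept, as in the study. Scrublet in scanpy 1.11.5 marked 16, 22, 0 and 5 doublets, which were removed. With 0 marked in the aged meninges doublets can remain there. UMIs were summed per library and class and scaled to CPM. Log2 ratios were taken after adding 10 CPM. A gene was measured in a comparison with at least 20 UMIs on the higher side. Shares and medians of all genes therefore lean toward the side with more UMIs in total. Intervals (95%) were exact Poisson for levels, Clopper-Pearson for shares and conditional binomial for ratios, and cover counting error only. With 1 library per group no test between conditions was possible.

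The genes, lists and splits were chosen with earlier results of these data known. Named genes are the 10 members, genes of the lists, and the 5 genes most like the members' profile. Positions are from GENCODE vM21 (30934 of 31053 identifiers matched). Promoters of 8 of 10 members were matched in RefSeq. Ratios were tested on simulated data. Alternatives covered pseudocount, scaling, thinning, mitochondrial limit, doublets, class call, other cell types, Ccr7 and the count filter. Python 3.11.15, numpy 2.4.6, scipy 1.17.1 and pandas 2.3.3 were used.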

Additional observations from a re-analysis of the deposited data

How the results depend on the processing

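Each condition was 1 library, so mouse-to-mouse variation is not covered, and Nlrc5, Tap1, Tap2 and Tapbp rest on the fewest UMIs. No paired analysis was possible because each condition was 1 library; classes were compared within their library, without a test. Of 720 age values of single genes 654 moved by less than their counting error and 66 by more, as did 33 of 720 tissue and 38 of 480 class values. No ratio past 0.5 changed sign under these alternatives, while smaller ratios of H2-T22, H2-T23, Tap1, Tap2, Tapbp and Nlrc5, and of B2m, H2-K1, H2-D1 and H2-Q7 between classes or tissues, did in places. Over all genes, centring took the number higher by 0.5 in choroid plexus CD4, CD8 and neither cells from 1033, 1086 and 945 to 664, 546 and 619, and no filter on low counts took it from 968 and 784 to 1549 and 1353 in meningeal CD4 and CD8 and from 1033 and 945 to 2227 and 1637 in choroid plexus CD4 and neither cells. The group's median was 0.10 for young choroid plexus over meninges CD4 and -0.40 for CD8 over CD4 in the aged choroid plexus with 2 UMIs per class call. The number of the 10 genes higher by 0.5 in aged cells moved as follows. In meningeal CD4 T cells it was 5 with cells thinned to 1000 UMIs, 1 without cells with UMIs of other cell types, and 1 in cells without and 1 in cells with a Ccr7 UMI. In meningeal CD8 T cells it was 2 without abundant families in the total, 2 without other cell types, and 3 in cells without and 1 in cells with a Ccr7 UMI. In meningeal neither cells it was 2 with 1 CPM added, with a mitochondrial limit of 10% or without the 5% highest doublet scores, 6 with thinning and 5 without gamma-delta or natural killer UMIs. In choroid plexus CD8 T cells it was 4 with thinning and 1 with centring, without abundant families, with the 10% limit, without other cell types and in cells without a Ccr7 UMI. In choroid plexus neither cells it was 2 with centring, without abundant families and in cells with a Ccr7 UMI, 0 without other cell types and 1 in cells without a Ccr7 UMI, and in choroid plexus CD4 T cells it was 1 in cells with a Ccr7 UMI. The median in meningeal neither cells was 0.19 in cells without a Ccr7 UMI. In cells with a Ccr7 UMI, an alternative chosen after seeing the data, the meningeal medians were 0.063, 0.062 and 0.12 in CD4, CD8 and neither cells, and Nlrc5 in meningeal CD4 (-0.58), H2-D1 in meningeal CD8 (-0.0146) and Tap1 in choroid plexus CD8 T cells (-0.0706) reversed. The causes were not tested.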
